A study of Mus musculus with 18 samples.

Results

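Intestinal dendritic cells (DCs) that carried green fluorescent protein (GFP) were set against CD103-gated macrophages that carried it, both sorted from the small intestine of mice whose epithelium had been injured with diphtheria toxin. The members were chosen by sample label alone: the 3 arrays of GFP-plus CD103+ CD24+ cells, called loaded DCs here, and the 3 arrays of GFP-plus CD103+ CD11b+ CD64+ cells, called loaded CD103 macrophages here. They are 6 of the 18 arrays in the series. The other 12 arrays hold the GFP-minus (unloaded) cells of both gates and CD11b+ CD64+ macrophages (CD11b macrophages), loaded and unloaded.

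All groups share the VDTR strain, in which the villin promoter drives a toxin receptor fused to GFP in the intestinal epithelium, so that GFP in a phagocyte is taken to mark epithelial material that the cell acquired. Every mouse received diphtheria toxin by intraperitoneal injection, at 2 ng/kg in PBS, and was killed 4 h later, so no group is free of toxin or of the transgene. Cells were sorted live as CD45+ CD11c+ MHCII+ before the population gates, from male and female animals whose ages are not in the labels. The labels give an n value of 4 without saying what it counts. Whether the 3 arrays of 1 group stand for separate mice or for pools is not stated, so the p-values below measure only a spread between arrays. That spread was pooled over all groups of the series and not taken from the compared groups alone.

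DCs and macrophages of the gut both engulf dying epithelial cells, but they are known for different fates of that cargo. CD103+ DCs of the cDC1 type depend on the growth factor receptor Flt3 and the transcription factors Irf8 and Batf3, carry antigen through lymph to the draining nodes with the help of the chemokine receptor Ccr7, and there instruct T cells. Tissue macrophages depend on Csf1r, stay in the lamina propria, digest what they take up in lysosomes, and are known there for the anti-inflammatory cytokine IL-10.

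Each value is a log2 expression level relative to the median of that probe over all 18 arrays, with probes of a gene averaged. Since 12 of the 18 arrays are macrophages, a macrophage value near 0 is the usual macrophage level of that gene. It does not show whether that level is high, low or at background. A difference is always loaded DCs minus loaded CD103 macrophages unless stated, ± its standard error (SE) from limma with 3 arrays per group. Each SE pools the spread within the groups of all 18 arrays, so it can differ from the spread of the arrays printed beside it. For Itgae the standard deviations were 0.27 in loaded DCs and 0.25 in loaded CD103 macrophages. In unloaded CD103 macrophages it was 2.05, and the SE of the loaded difference was 0.65. A gene is called higher or lower where the limma p-value, adjusted by Benjamini-Hochberg over 22180 genes, was under 0.05. Within a group, arrays correlated at 0.525 to 0.57 for the loaded DCs and at 0.054 to 0.39 for the loaded CD103 macrophages. limma estimated array weights of 0.414, 0.664 and 0.617 for the loaded DC arrays, against 0.352, 2.42 and 1.45 for the loaded CD103 macrophage arrays, so replicate 1 of each group was its least precise array.

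The genes behind the sort followed the gates with an exception. Itgae, which encodes CD103 itself, stood at 4.93, 5.30 and 5.46 in the loaded DCs, against -0.44, -0.15 and 0.05 in the loaded CD103 macrophages. The loaded CD103-gated macrophages thus sat near the 18-array median for the gene that names their gate, while the unloaded DCs stood at 5.56, 5.56 and 5.28, against 3.44, -0.43 and 2.66 in unloaded CD103-gated macrophages, of which 2 arrays lay well above the median. On the difference scale the loaded DCs were 5.58 ± 0.65 above the loaded CD11b macrophages, a difference close to the 5.41 ± 0.65 above the CD103-gated ones. Cd24a was 31.9-fold higher in loaded DCs, Itgam (CD11b) lower (-5.02 ± 0.24) and Fcgr1 (CD64) lower (-4.86 ± 0.32) in loaded DCs. The markers shared by both gates showed no call: Itgax (CD11c) differed by 0.42 ± 0.32 (limma adjusted p = 0.55), and Ptprc (CD45) by -0.52 ± 0.30 (limma adjusted p = 0.403). These genes were selected by the sort and are a check of the labels, not findings.

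Between the loaded populations 1533 genes were called, which is 6.91% of all genes tested. Of these, 383 (1.73%) were higher and 1150 (5.18%) lower in loaded DCs, so 25% of the calls were higher. After quantile normalization between arrays the split was 339 higher and 539 lower, or 38.6% higher. In a fit of the 6 arrays alone it was 131 higher and 621 lower, or 17.4% higher, and the share was 16.4% without loaded CD103 macrophage replicate 1. The median over all genes was -0.038. The shares over all genes, 1.73% higher and 5.18% lower, are the background for every list count of this contrast below. All 3 loaded DC arrays lay above all 3 loaded CD103 macrophage arrays for 7.47% of genes and below them for 13.1%, so a lack of overlap is common and is given below as a description. Differences of at least 16-fold were found for 33 genes higher and 127 genes lower in loaded DCs. In bulk RNA, fewer cells of a type in the sort and less RNA per cell cannot be told apart, and this applies to every difference below. The plot of differences against adjusted p shows the longer and denser arm of lower genes.

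**Figure D1:**
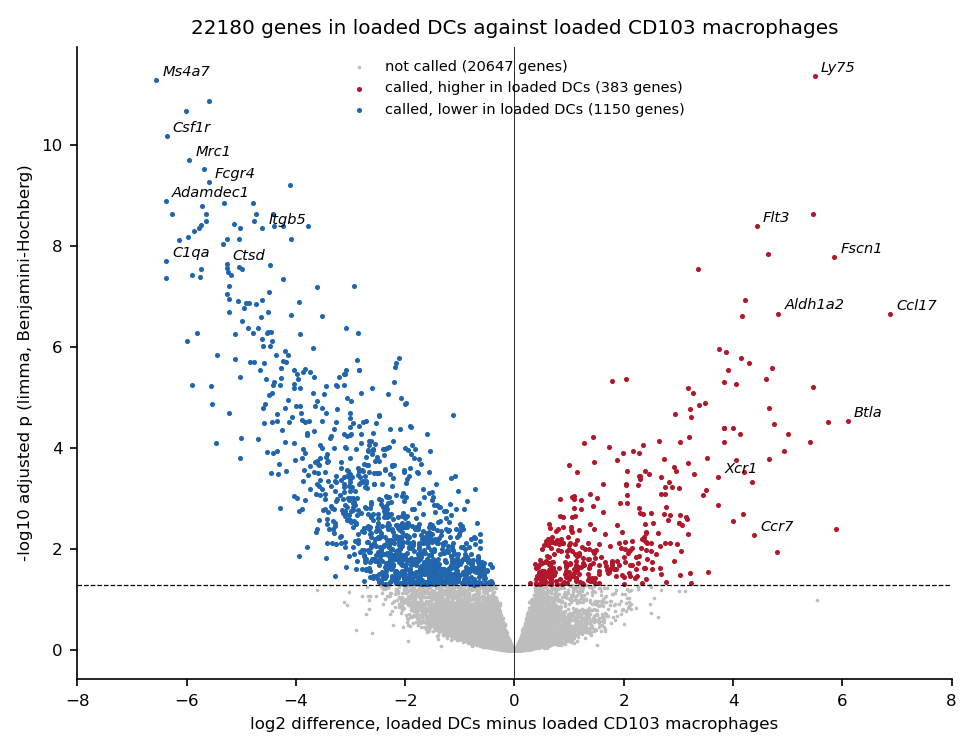
Each point is 1 of 22180 genes. The x axis gives the log2 difference, loaded DCs minus loaded CD103 macrophages, and the y axis -log10 of the limma adjusted p. Red marks the 383 genes called higher in loaded DCs, blue the 1150 called lower, grey the rest, and the dashed line the threshold of 0.05. Ly75 at 5.49 and Ms4a7 at -6.56 have the smallest adjusted p on their sides.

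The largest increase in loaded DCs was that of Ccl17, a chemokine that draws Ccr4-bearing T cells. Ccl17 stood at 4.41, 4.15 and 3.65 in the loaded DCs, against -3.01, -2.81 and -2.59 in the loaded CD103 macrophages, which is 6.87 ± 0.47 or 117-fold (limma adjusted p = 2.24e-07). All 3 DC arrays lay far above all 3 macrophage arrays, and the macrophages were here below the 18-array median. Next came Btla, an inhibitory receptor of the CD28 family, at 4.90, 6.16 and 6.27 in loaded DCs, against -0.32, -0.34 and -0.31 in loaded CD103 macrophages (6.10 ± 0.66). Fscn1, the actin-bundling protein fascin of mature DCs, was at 6.26, 5.88 and 5.65 in loaded DCs, against -0.50, 0.14 and 0.60 in loaded CD103 macrophages (5.85 ± 0.32). In each of these genes every DC array lay far above every macrophage array.

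The other genes among the 15 largest increases spanned 4.70 to 5.88. They included Ly75 (the endocytic lectin DEC-205, 5.49 ± 0.13), the protease inhibitors Serpinb1a (5.88 ± 1.11) and Serpinb6b (4.74 ± 0.52), the actin crosslinker Actn1 (5.45 ± 0.51), the receptor Gpr33 (5.47 ± 0.24), Glipr2 (5.74 ± 0.63), the glutaminyl cyclase Qpct (4.92 ± 0.62), the exchange factor Net1 (4.70 ± 0.40) and Aldh1a2, described below. Ly75 was the most even of them, at 5.30, 5.49 and 5.42 in loaded DCs, against -0.09, -0.13 and -0.06 in loaded CD103 macrophages (limma adjusted p = 4.19e-12). Rab30, a small GTPase of the Golgi, was the least even, at 0.84, 7.03 and 6.09 in loaded DCs, against -0.33, -0.20 and 0.04 in loaded CD103 macrophages (4.81 ± 1.06). Its first DC array lay far below the other DC arrays, and its call ended without loaded DC replicate 3 (4.09, limma adjusted p = 0.0553) and in a fit of the 6 arrays alone (limma adjusted p = 0.251).

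The largest decreases were macrophage genes. Ms4a7, a membrane protein of tissue macrophages, stood at -6.30, -6.08 and -6.24 in loaded DCs, against 0.17, 0.44 and 0.43 in loaded CD103 macrophages, a difference of -6.56 ± 0.16 (94.1-fold lower, limma adjusted p = 5.02e-12). C1qa, a chain of the first complement component, was at -6.55, -6.29 and -6.12 in loaded DCs, against -0.07, 0.03 and 0.21 in loaded CD103 macrophages (-6.38 ± 0.35). In both genes the DC arrays were close to each other and did not overlap with the macrophages. The 15 largest decreases, from -5.80 to -6.56, also held the metalloprotease Adamdec1 (-6.38 ± 0.26), the monocyte chemokine Ccl7 (-6.37 ± 0.38), Csf1r (-6.37 ± 0.20), the anaphylatoxin receptors C3ar1 (-6.26 ± 0.28) and C5ar1 (-6.02 ± 0.17), Cx3cr1 (-6.15 ± 0.31), the heme oxygenase Hmox1 (-6.00 ± 0.46), the oxidase subunit Cybb (-5.97 ± 0.30), the mannose receptor Mrc1 (-5.95 ± 0.20), Plau, C1qc, the lysosomal phosphatase Acp5 and the collagenase Mmp13.

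Markers of the cDC1 lineage were higher in the loaded DCs. Of 19 measured genes of a cDC1 list, 10 were called higher and 1 lower, with a median of 1.777. The gene called lower was Rab7b (-2.02 ± 0.52), and its call ended without loaded DC replicate 1 or 2 or any 1 of the loaded CD103 macrophage arrays (-1.41 to -2.10). The sort genes Itgae and Cd24a are among the 10. Xcr1, the cDC1 receptor for Xcl1, stood at 3.90, 4.68 and 3.49 in loaded DCs, against -0.59, 1.51 and -0.03 in loaded CD103 macrophages (3.73 ± 0.53, limma adjusted p = 0.000373). Its second macrophage array was raised but still below every DC array. Tlr3, the endosomal sensor of double-stranded RNA, was 3.84 ± 0.43 higher, Wdfy4, which is needed for cross-presentation, 3.72 ± 0.61 higher, and Irf8 1.78 ± 0.16 higher. Naaa, a lysosomal amidase, was 3.83 ± 0.46 higher. Batf3 did not pass (1.43 ± 0.44, limma adjusted p = 0.067) but did so without loaded DC replicate 3 (1.79, limma adjusted p = 0.0351) or without loaded CD103 macrophage replicate 3 (1.78, limma adjusted p = 0.0401). Id2 did not pass either (0.09 ± 0.27, limma adjusted p = 0.922).

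Of 15 measured pan-DC genes 4 were called higher, with a median of 1.306, and 7 were called without loaded CD103 macrophage replicate 3, after quantile normalization or with the replicate number as a block. Flt3, the receptor for the DC growth factor Flt3 ligand, stood at 3.86, 4.25 and 4.21 in loaded DCs, against -0.40, -0.30 and -0.27 in loaded CD103 macrophages, 4.43 ± 0.21 or 21.6-fold higher (limma adjusted p = 3.95e-09). The groups were tight and far apart. Kit, which encodes the stem cell factor receptor, did not pass (2.27 ± 0.66, limma adjusted p = 0.0557) except without loaded DC replicate 3 (2.94, limma adjusted p = 0.0153), with array weights, under quantile normalization and with the replicate block. Zbtb46, a transcription factor of conventional DCs, stood at 3.13 in the first loaded DC array and at -0.02 and 0.11 in the others (1.31 ± 0.61, limma adjusted p = 0.271). For cDC2 markers the calls ran the other way: 6 of 14 were lower in loaded DCs and the rest were not called. They include Sirpa (-5.26 ± 0.27), the inhibitory receptor that reads CD47, and Notch2, but also the sort gene Itgam and several lectins that macrophages express too.

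Nearly the whole macrophage list was lower in loaded DCs. Of 29 measured core macrophage genes 27 were called lower, with a median of -4.495, beside 5.18% of all genes. The sort gene Fcgr1 is among the 27. Csf1r, the receptor for the macrophage growth factor, stood at -6.25, -5.87 and -6.09 in loaded DCs, against 0.24, -0.03 and 0.67 in loaded CD103 macrophages (82.4-fold lower, limma adjusted p = 6.63e-11). Quantile normalization made these differences smaller: 25 of the list were then called lower, with a median of -2.747. Csf1r was then 15.7-fold and Ms4a7 21.4-fold lower. Of the 101 named genes called lower, 66 had a difference smaller by over 1.5 times on the log2 scale after it, against none of the 55 called higher. Mrc1 was at -4.94, -4.61 and -4.97 in loaded DCs, against 1.34, 0.87 and 1.10 in loaded CD103 macrophages. Neither gene showed any overlap. Adgre1 (F4/80) was at -5.65 and Fcgr4 at -5.59 on the difference scale, whereas Trem2, a lipid-sensing receptor, did not pass (-0.81, limma adjusted p = 0.516).

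Of 18 genes listed for resident gut macrophages 12 were called lower (median -3.709), beside 5.18% of all genes. After quantile normalization 11 were called lower and 1 higher. Beside Ms4a7, Adamdec1 and Cx3cr1 the 12 included the platelet factor Pf4 (-5.77 ± 0.28) and the hemoglobin scavenger receptor Cd163 (-4.69 ± 0.55). Timd4, which encodes a phosphatidylserine receptor, was at -2.17, 0.35 and -2.12 in loaded DCs, against 0.76, 0.98 and 2.33 in loaded CD103 macrophages. It did not pass (-2.67 ± 0.90, limma adjusted p = 0.102). Its second DC array lay close to the macrophage arrays, and without it the gene passed (-3.50, limma adjusted p = 0.0316). The panels by array show how little the groups overlapped for both sets of markers.

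**Figure D2:**
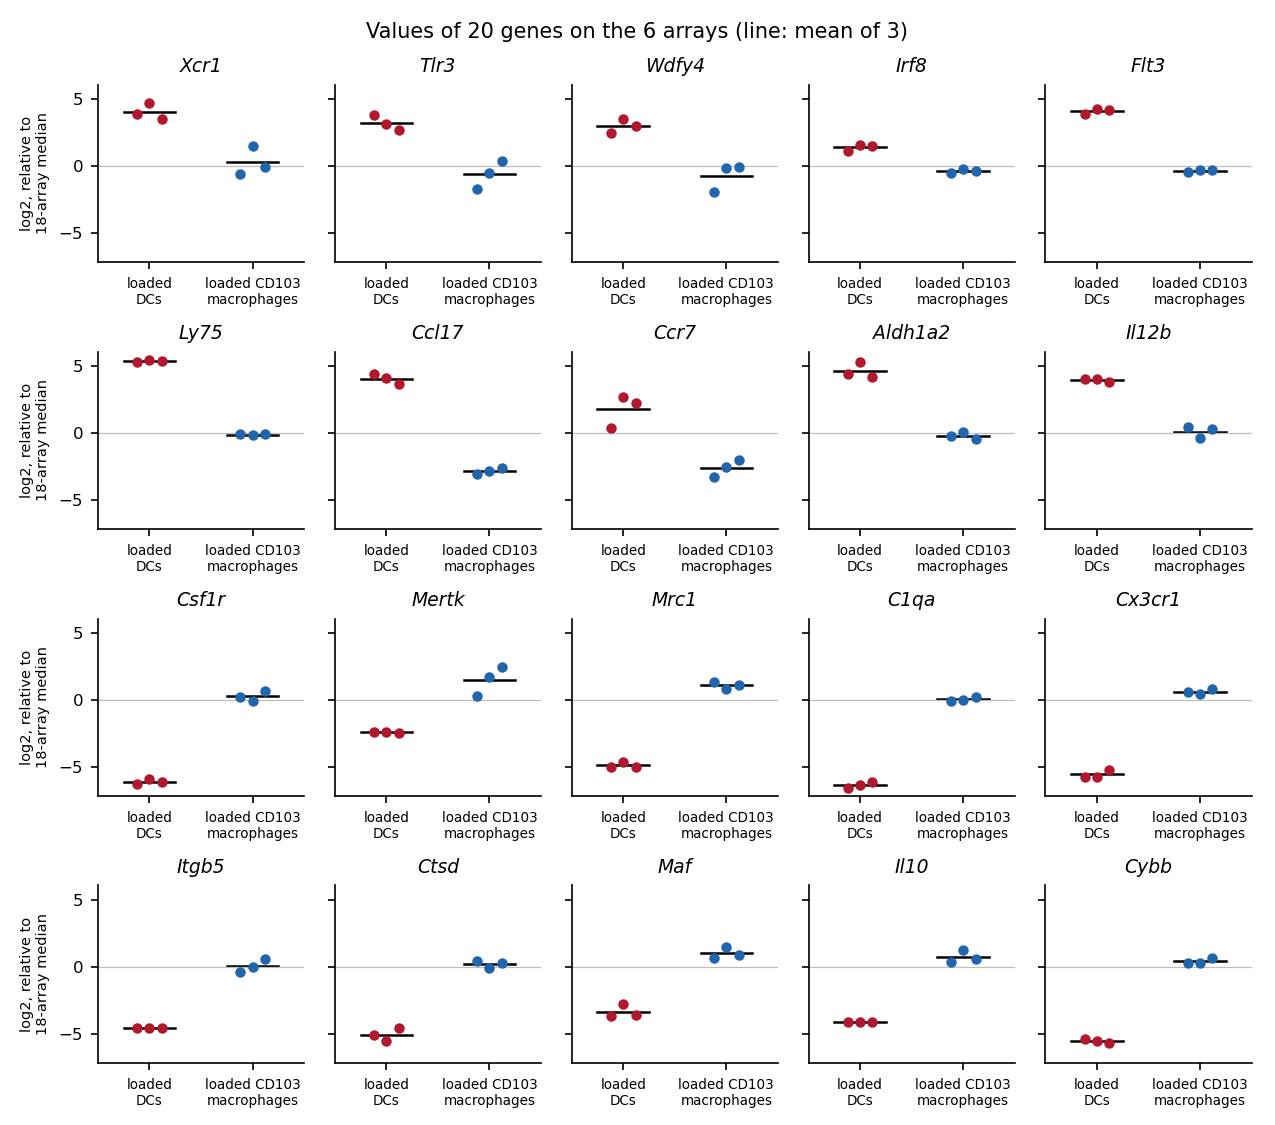
Each panel shows 1 of 20 genes, with the log2 value relative to the 18-array median on a shared y axis, 3 loaded DC arrays at the left in red, 3 loaded CD103 macrophage arrays at the right in blue, and a line at each mean. The 10 genes from Xcr1 to Il12b lie higher in loaded DCs, and the 10 from Csf1r to Cybb lie lower, with no overlap of the groups in any panel. Ccr7 spans 0.42 to 2.70 in loaded DCs and -3.27 to -1.98 in loaded CD103 macrophages.

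Transcription factors of macrophages were in part lower in loaded DCs. Of 17 macrophage factors 8 were called lower and 2 higher (median -2.14), with 5 lower without loaded DC replicate 3. Maf, a factor of resident macrophages, was lower (-4.35 ± 0.46), Spic, the factor of heme-handling macrophages, lower (-4.34 ± 0.47), and the liver X receptor Nr1h3, a sensor of oxysterols, lower (-2.96 ± 0.33) in loaded DCs. Cebpb was at -5.48, -2.81 and -5.86 in loaded DCs, against 0.23, 0.56 and 0.05 in loaded CD103 macrophages (31.9-fold lower), so its second DC array was less low than the others. Spi1, which encodes PU.1, a factor of both lineages, did not pass (-0.69 ± 0.35, limma adjusted p = 0.318). The 2 higher were Bhlhe40 (1.70 ± 0.43), whose call ended without loaded DC replicate 2 or 3 (1.58 and 1.52) or loaded CD103 macrophage replicate 2 (1.19), and the immediate early gene Nr4a1 (0.75 ± 0.19), whose call ended without loaded DC replicate 1 or 2 (0.79 and 0.60) or loaded CD103 macrophage replicate 2 or 3 (0.68 and 0.74). Of 13 DC factors 2 were called higher and 2 lower (median 0.294). Irf8 and Notch2 (-1.99 ± 0.29) kept their calls without any 1 array. Cbfa2t3 (1.87 ± 0.44) lost its call without loaded DC replicate 3 (1.63) or loaded CD103 macrophage replicate 1 (1.59), and Ikzf1 (-1.70 ± 0.42) without loaded DC replicate 1 (-1.09) or loaded CD103 macrophage replicate 2 or 3 (-1.64 and -1.57). Irf4, the factor of cDC2, did not pass, differing by -0.07 ± 0.41 (limma adjusted p = 0.961).

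Among 13 growth factor and cytokine receptors Flt3 alone was called higher and 4 were called lower. Beside Csf1r these were Tgfbr2 (-3.95 ± 0.36), the signalling chain for TGF-beta, Il10rb (-3.77 ± 0.41), a chain of the IL-10 receptor, and Csf3r (-3.24 ± 0.30), the receptor of granulocyte colony stimulating factor. Il10rb stood at -3.20, -3.36 and -3.53 in loaded DCs, against -0.69, 0.97 and 0.94 in loaded CD103 macrophages. The first macrophage array was lower than the others and still above every DC array.

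PU.1 is known to act in both lineages, so its motif was looked up in the promoters of both marker sets. The motif searched was GAGGAAGT, on both strands (ACTTCCTC on the other), in the 250 bases before the start of each gene, taken from RefSeq (assembly GRCm38.p6). It was found in 2.67% of 16990 promoters of tested genes, in 3.57% of those called higher and in 4.55% of those called lower in loaded DCs. Among cDC1 markers 3 of 14 promoters held it and among core macrophage markers 3 of 20. A match describes the sequence only. An example from each set follows, with the 80 bases before the start and the motif in capitals.
Btla, chr16:45224257-45224336, plus strand: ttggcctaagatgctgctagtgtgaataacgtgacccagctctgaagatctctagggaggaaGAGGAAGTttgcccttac
Fcgr4, chr1:171018846-171018925, plus strand: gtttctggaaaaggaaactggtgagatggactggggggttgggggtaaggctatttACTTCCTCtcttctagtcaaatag
The motif starts 18 bases before the start in Btla, which was higher in loaded DCs, and 24 bases before it in Fcgr4, which was lower.

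Receptors that sense microbes or opsonised particles were mostly lower in loaded DCs. Of 22 Toll-like receptors and nucleic acid sensors 15 were called lower and 2 higher (median -2.053). The count of lower sensors was 9 after quantile normalization, with a median of -1.269, and 8 in a fit of the 6 arrays alone. Tlr7, the endosomal sensor of single-stranded RNA, stood at -2.64, -3.25 and -3.15 in loaded DCs, against 0.88, 1.57 and 1.19 in loaded CD103 macrophages (18.8-fold lower, limma adjusted p = 3.95e-09). Tlr2, the receptor for bacterial lipoproteins, was lower (-4.51 ± 0.33), Tlr8 lower (-4.03), and the inflammasome sensor Nlrp3 lower (-4.44 ± 0.43) in loaded DCs. Those called higher were Tlr3, given above, and Tlr11, a receptor for profilin and flagellin, at 2.13, 1.97 and 1.75 in loaded DCs, against -2.09, -0.58 and -0.37 in loaded CD103 macrophages (2.97 ± 0.62). The call of Tlr11 ended without the arrays of weight under 0.5 (2.34, limma adjusted p = 0.0938) and after quantile normalization (limma adjusted p = 0.0734).

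Of 11 Fc receptor genes 7 were called lower, beside 5.18% of all genes, and the rest were not called. Fcgr1, lower as given above, is itself an Fc receptor gene and a sort gene. Fcgr4, which binds IgG, stood at -5.51, -5.57 and -5.58 in loaded DCs, against -0.56, 0.31 and 0.37 in loaded CD103 macrophages (-5.59 ± 0.21). Fcer1g, their shared signalling chain, was at -6.63, -3.21 and -6.48 in loaded DCs, against -0.10, 0.08 and 0.07 in loaded CD103 macrophages, with 1 DC array less low than the others. Of 18 complement genes 11 were called lower, among them all 3 chains of C1q: C1qa, C1qc (-5.89 ± 0.55) and C1qb (-4.58). Of 24 C-type lectins and scavenger receptors 11 were lower, such as Mrc1, Msr1 (-5.13 ± 0.24) and Siglec1 (-3.28 ± 0.60), and Ly75 alone was higher.

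Genes for the recognition and uptake of apoptotic cells were lower in loaded DCs where they were called in the values as deposited, although both populations were gated for GFP. Of 29 measured genes 11 were called lower, beside 5.18% of all genes, with a median of -0.807. After quantile normalization 11 were called lower and 1 higher, with a median of -0.66. Mertk, a kinase that binds dying cells through Gas6 and protein S, stood at -2.37, -2.36 and -2.40 in loaded DCs, against 0.36, 1.73 and 2.47 in loaded CD103 macrophages (-3.90 ± 0.41, limma adjusted p = 1.99e-05). Itgb5, which pairs with Itgav as a receptor for apoptotic cells, was at -4.53, -4.52 and -4.51 in loaded DCs, against -0.37, 0.01 and 0.65 in loaded CD103 macrophages (-4.62 ± 0.22). For both genes the DC arrays were nearly equal and the macrophage arrays spread. The file holds no absolute signal, so a DC value at the background of the array cannot be told apart from a low level.

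Other members of the uptake list called lower in loaded DCs were the bridging proteins Gas6 (-3.47 ± 0.48) and Thbs1 (-5.22 ± 0.35), the kinase Axl (-3.31 ± 0.41), the scavenger receptor Stab1 (-4.46 ± 0.25), Lrp1 (-3.07 ± 0.55), Itgav (-2.73 ± 0.39) and Abca1 (-4.95 ± 0.33), the exporter of cholesterol from cells that have engulfed others. Cd36, a scavenger receptor of apoptotic cells that cDC1 also express, differed by 0.86 (limma adjusted p = 0.33). The values are RNA levels of sorted cells at 4 h and not measures of uptake.

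Lysosomal genes were lower in loaded DCs as a group. Of 31 measured genes 22 were called lower, beside 5.18% of all genes, with a median of -1.476. The count was 12 in a fit of the 6 arrays alone. After quantile normalization the median was -0.865. Ctsd, an aspartic protease of lysosomes, stood at -5.07, -5.47 and -4.56 in loaded DCs, against 0.46, -0.08 and 0.33 in loaded CD103 macrophages (38.5-fold lower, limma adjusted p = 2.29e-08). Lgmn, the asparaginyl endopeptidase that also trims endosomal antigen, was at -5.17, -4.33 and -3.08 in loaded DCs, against 0.02, 0.02 and 0.57 in loaded CD103 macrophages (-4.39 ± 0.40). The DC arrays spread more than the macrophage arrays here, without overlap. Ctsl was lower (-4.63 ± 0.30), Ctsb lower (-2.84 ± 0.25) and the membrane protein Lamp2 lower (-2.18) in loaded DCs. Lamp1 was lower (-1.25 ± 0.22), a call that ended under quantile normalization or in a fit of the 6 arrays alone. Not all of the list was called: Psap, the precursor of the saposins, was at -0.26, -0.02 and -0.06 in loaded DCs, against -0.47, -0.18 and 0.18 in loaded CD103 macrophages (0.04 ± 0.17, limma adjusted p = 0.941), and Tfeb, a master factor of lysosomal genes, did not pass (-0.34 ± 0.19, limma adjusted p = 0.362).

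The E-box CACGTG, the core of the element that Tfeb and related factors are known to bind, is its own reverse complement and was looked up in the same promoters. It was found in 7.83% of 16990 promoters, in 9.74% of those called higher and in 11.5% of those called lower in loaded DCs. In the lysosomal list 8 of 27 promoters held it (29.6%), all 8 of them among the 19 genes called lower that have a promoter in the table. They include Ctsa, Ctsd, Ctsl, Lamp1 and Lgmn. Windows ending at the base before the start are shown for Ctsd, Lgmn and Lamp1, with the E-box in capitals, since Lamp1 holds 4 of them in 80 bases.
Ctsd, chr7:142387828-142388077, minus strand: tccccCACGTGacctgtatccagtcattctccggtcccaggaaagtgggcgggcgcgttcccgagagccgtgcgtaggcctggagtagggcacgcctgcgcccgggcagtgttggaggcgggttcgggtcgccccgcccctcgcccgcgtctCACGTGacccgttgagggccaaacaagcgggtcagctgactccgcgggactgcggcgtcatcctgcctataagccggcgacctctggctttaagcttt
Lgmn, chr12:102439093-102439172, minus strand: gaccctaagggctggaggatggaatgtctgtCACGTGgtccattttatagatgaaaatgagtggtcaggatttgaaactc
Lamp1, chr8:13159081-13159160, plus strand: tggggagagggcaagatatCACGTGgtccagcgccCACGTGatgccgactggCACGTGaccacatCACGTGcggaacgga
In Ctsd the E-boxes begin 245 and 98 bases before the start, in Lgmn 49 bases before it, and in Lamp1 61, 45, 28 and 15 bases before it. Lamp1, with the most copies, had the smallest difference of these 3 genes, which is a description only.

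Genes of antigen presentation were called in both directions. The class II chain H2-Aa differed by -0.07 ± 0.11 (limma adjusted p = 0.826) and B2m, the light chain of class I, by 0.01 ± 0.09 (limma adjusted p = 0.966). MHC class II protein was part of the sort gate, B2m was not. Of 19 class II pathway genes 4 were called lower and 2 higher (median -0.082). Those called higher encode the chains of H2-O, which restrains peptide loading: H2-Ob (2.31 ± 0.49) and H2-Oa, at 1.80, 0.36 and 0.19 in loaded DCs, against -2.89, -1.73 and -0.55 in loaded CD103 macrophages (2.50 ± 0.55). The call of H2-Oa ended without loaded DC replicate 1 (2.00, limma adjusted p = 0.0546), and both ended in a fit of the 6 arrays alone. Those called lower were Lgmn and Ctsl, given above, Ctss (-1.60), which cleaves the invariant chain, and Marchf1 (-1.05), a ligase that removes class II from the surface. The call of Marchf1 ended without loaded DC replicate 1 (-0.88, limma adjusted p = 0.12), without loaded CD103 macrophage replicate 2 (-0.99, limma adjusted p = 0.0938) or without replicate 3 (-0.95, limma adjusted p = 0.111).

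Of 24 genes for class I and cross-presentation 5 were called higher and 1 lower (median 0.187), with 3 higher in a fit of the 6 arrays alone. Psmb9, an immunoproteasome subunit, stood at 0.85, 0.87 and 0.92 in loaded DCs, against -0.58, -0.53 and -0.59 in loaded CD103 macrophages (1.45 ± 0.17, limma adjusted p = 5.84e-05). The difference is 2.72-fold and exceeds the spread of either group many times over. Psme1, a proteasome activator, was 1.14 ± 0.16 higher, Rab43, a GTPase needed for cross-presentation by cDC1, 1.19 ± 0.23 higher and Wdfy4 higher as given above. The call of Rab43 ended in the fit of 6 arrays. Tap1, the peptide transporter, was 1.29 ± 0.28 higher, a call that ended without loaded CD103 macrophage replicate 2 (1.06, limma adjusted p = 0.052). The gene called lower was Cybb, the catalytic subunit of the phagosomal NADPH oxidase.

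Chemokines divided the populations. Of 26 ligands 14 were called lower and 2 higher in loaded DCs (median -2.229). The pair called higher was Ccl17, given above, and Ccl22, which share the receptor Ccr4. Ccl22 stood at 3.72, 3.80 and 3.55 in loaded DCs, against 0.83, -2.01 and -0.80 in loaded CD103 macrophages (20.4-fold higher, limma adjusted p = 0.000462). Its macrophage arrays were spread widely and none reached a DC array.

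The ligands called lower include chemoattractants of monocytes and neutrophils. Ccl7 was at -4.52, -4.35 and -4.67 in loaded DCs, against 2.15, 2.12 and 1.31 in loaded CD103 macrophages (82.9-fold lower). Ccl12 (-5.23 ± 0.34), Ccl8 (-5.56), Pf4 (-5.77 ± 0.28), Ccl3 (-4.13) and Cxcl1 (-4.77) were lower as well. Cxcl10, the interferon-induced ligand of Cxcr3, was lower by less (-1.91 ± 0.26). Of 19 receptors 2 were called higher and 4 lower. Ccr7, the receptor that leads DCs to lymph nodes, was at 0.42, 2.70 and 2.25 in loaded DCs, against -3.27, -2.52 and -1.98 in loaded CD103 macrophages (4.38 ± 0.86, limma adjusted p = 0.00526). Its first DC array lay below the other 2 DC arrays and above all macrophage arrays. Xcr1 was the other receptor called higher. Ccr1, a receptor of Ccl3, was lower (-4.77 ± 0.22), and Cx3cr1, the fractalkine receptor, lower (-6.15 ± 0.31) in loaded DCs.

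**Figure D3:**
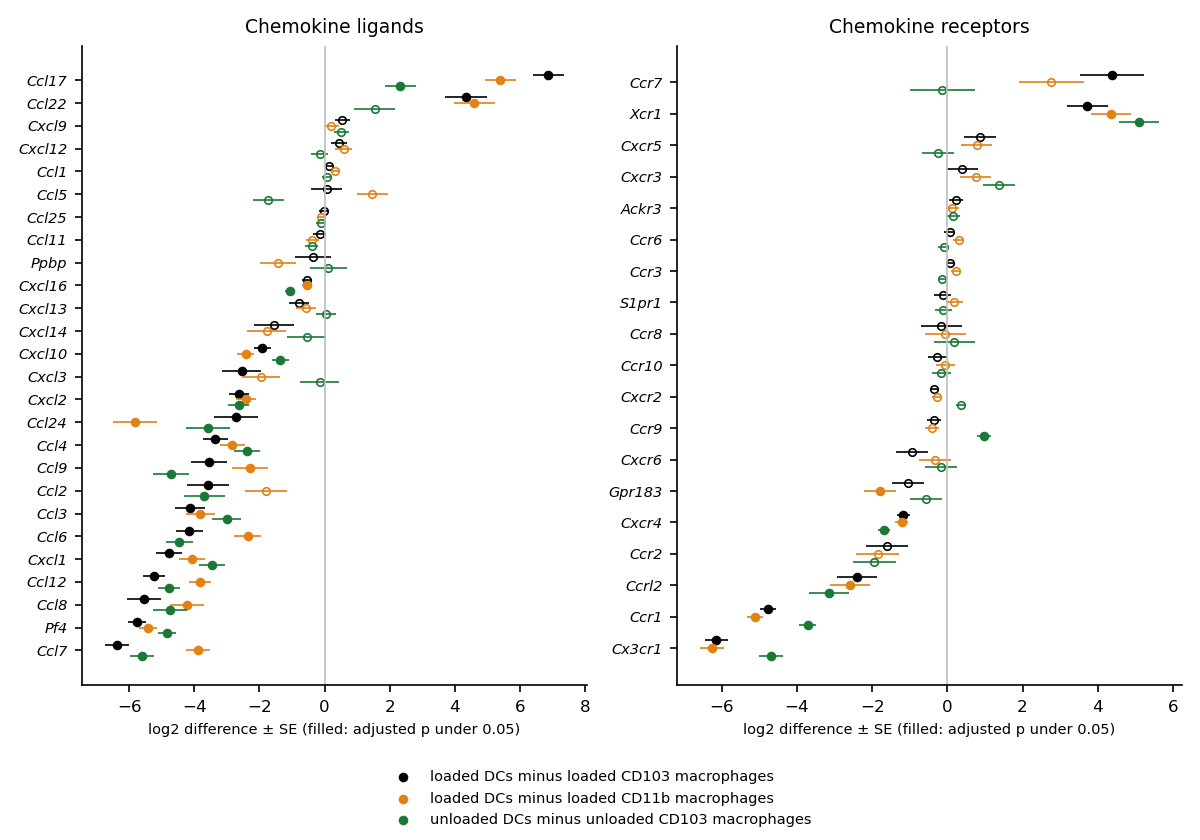
Log2 differences ± SE of 26 chemokine ligands (left) and 19 receptors (right), with 3 arrays per group, for loaded DCs minus loaded CD103 macrophages (black), loaded DCs minus loaded CD11b macrophages (orange, the same 3 DC arrays) and unloaded DCs minus unloaded CD103 macrophages (green). Filled points have a limma adjusted p under 0.05. Ccl17 is at 6.87 and Ccl22 at 4.35 in black, and Ccr7 at 4.38 in black is at -0.14 in green.

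Cytokines were called in both directions. Of 27 genes 10 were called lower and 3 higher in loaded DCs. Il12b, the shared chain of IL-12 and IL-23, stood at 4.02, 4.03 and 3.82 in loaded DCs, against 0.48, -0.37 and 0.29 in loaded CD103 macrophages (14.2-fold higher, limma adjusted p = 4.85e-06). Il12a, its partner in IL-12, was 0.89 ± 0.16 higher, and Lif, a cytokine of the IL-6 family, 4.66 ± 0.48 higher. These DC arrays all lay above all macrophage arrays. Il10 was at -4.08, -4.11 and -4.10 in loaded DCs, against 0.38, 1.27 and 0.60 in loaded CD103 macrophages (28.7-fold lower, limma adjusted p = 1.99e-06). Il1rn, the IL-1 receptor antagonist, was lower (-4.68 ± 0.34), Il1a lower (-4.61 ± 0.36), Osm lower (-3.78 ± 0.18) and the growth factor Igf1 lower (-3.75 ± 0.33). Tnf (-0.65 ± 0.35, limma adjusted p = 0.355) and Il6 (-0.57 ± 0.46, limma adjusted p = 0.584) did not pass, and the groups overlapped for both.

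A list of 25 genes for DC maturation and migration had 7 called higher and 1 lower, with a median of 0.924. Those higher were Ccl17, Fscn1, Ccr7, Ccl22, Il12b, Cd200, a ligand of an inhibitory receptor, and the adaptor Traf1. The call of Traf1 (2.33 ± 0.47) ended under quantile normalization and that of Cd200 (2.54 ± 0.46) in a fit of the 6 arrays alone. The classical costimulators were not called: Cd86 differed by 0.13 ± 0.35 (limma adjusted p = 0.903), Cd40 by -0.12 ± 0.56 (limma adjusted p = 0.953) and Cd80 by 1.17 ± 0.47 (limma adjusted p = 0.188). Cd274 (PD-L1) differed by 0.12 ± 0.31 (limma adjusted p = 0.898). Of 21 costimulatory and checkpoint genes 2 were called higher, Btla and Cd200, and 3 lower. Lag3, an inhibitory receptor that binds class II, was lower (-3.50 ± 0.59), a call that also ended in the fit of 6 arrays. Vsir, the checkpoint ligand VISTA, was at -3.89, -3.42 and -4.34 in loaded DCs, against 0.44, 0.27 and 0.47 in loaded CD103 macrophages (-4.27 ± 0.38).

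Aldh1a2 and Cyp26b1, which make and break down retinoic acid, were higher in loaded DCs, while their list as a whole had a median of 0.010. Aldh1a2, which makes retinoic acid from retinal and is known for imprinting gut homing on T cells, stood at 4.45, 5.34 and 4.19 in loaded DCs, against -0.18, 0.07 and -0.39 in loaded CD103 macrophages (28.4-fold higher, limma adjusted p = 2.15e-07). Cyp26b1, which breaks retinoic acid down, was higher too (1.99 ± 0.25). In the list of 18 retinoic acid and TGF-beta genes these were the 2 called higher, and 3 were called lower, among them Itgav, which takes part in activating latent TGF-beta.

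Interferon-stimulated genes were lower in loaded DCs, though the size of the group depended on the processing. Of 22 measured genes 14 were called lower (median -1.574). The count was 9 without loaded DC replicate 3 and also 9 without loaded CD103 macrophage replicate 3, 4 after quantile normalization and 6 in a fit of the 6 arrays alone. Gbp3, a guanylate-binding protein, stood at -3.33, -2.40 and -3.20 in loaded DCs, against 0.02, 1.27 and 0.78 in loaded CD103 macrophages (12.7-fold lower, limma adjusted p = 0.000301). Ifi204, an intracellular DNA sensor, was lower (-4.34 ± 0.55) and Oasl2 lower (-2.60 ± 0.33). Rsad2 (viperin) was lower (-2.55 ± 0.51) and Bst2 (tetherin) lower (-2.08 ± 0.42), and both calls ended under quantile normalization. Isg15, a ubiquitin-like modifier, was at -1.50, -1.66 and -3.47 in loaded DCs, against -0.86, 0.14 and 0.25 in loaded CD103 macrophages (-2.06 ± 0.52, limma adjusted p = 0.027). The DC arrays were all lower, the third by the most. The call of Isg15 ended without loaded DC replicate 3 (-1.43, limma adjusted p = 0.103) and without loaded CD103 macrophage replicate 2 (-1.91, limma adjusted p = 0.0963) or replicate 3 (-1.85, limma adjusted p = 0.108).

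The interferon-stimulated response element was looked up as GAAANNGAAA, with TTTCNNTTTC on the other strand. It was found in 3.4% of 16990 promoters, in 4.87% of those called higher and in 6.71% of those called lower in loaded DCs. In the interferon list 10 of 16 promoters held it (62.5%), and 8 of the 11 promoters of members called lower (72.7%). The windows below show where it lies in 4 of those genes, in capitals, with overlapping matches run together.
Isg15, chr4:156200819-156200938, minus strand: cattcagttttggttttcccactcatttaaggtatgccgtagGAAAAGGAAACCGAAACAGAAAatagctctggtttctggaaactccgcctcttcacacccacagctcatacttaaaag
Bst2, chr8:71537473-71537612, minus strand: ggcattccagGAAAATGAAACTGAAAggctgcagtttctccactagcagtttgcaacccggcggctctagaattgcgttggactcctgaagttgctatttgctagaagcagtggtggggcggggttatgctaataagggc
Rsad2, chr12:26456453-26456582, minus strand: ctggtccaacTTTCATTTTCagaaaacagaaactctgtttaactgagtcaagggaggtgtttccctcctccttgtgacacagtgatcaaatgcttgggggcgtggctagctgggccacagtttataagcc
Gbp3, chr3:142559924-142560043, plus strand: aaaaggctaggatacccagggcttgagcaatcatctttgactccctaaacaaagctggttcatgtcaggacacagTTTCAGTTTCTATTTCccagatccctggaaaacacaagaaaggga
In Isg15 the matches begin 78, 72 and 66 bases before the start and overlap, in Bst2 they begin 130 and 124 bases before it, in Rsad2 120 bases before it, and in Gbp3 45 and 39 bases before it.

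Of 25 genes of NF-kB signalling and its feedback 9 were called lower and 3 higher, beside 5.18% and 1.73% of all genes, with 5 lower in a fit of the 6 arrays alone. The immediate early genes Fos (-1.79) and Jun (-1.50 ± 0.28), the NF-kB cofactor Nfkbiz (-3.01 ± 0.46) and the cytokine signalling inhibitor Socs3 (-2.77 ± 0.38) were lower in loaded DCs. The call of Jun ended under quantile normalization or in the fit of 6 arrays. The nuclear receptors Nr4a2 and Nr4a3 went the other way. Nr4a2 stood at 3.34, 3.35 and 3.14 in loaded DCs, against -1.13, -0.96 and -0.61 in loaded CD103 macrophages (18.1-fold higher, limma adjusted p = 0.002), and Nr4a3 was 1.97 ± 0.38 higher.

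Genes of iron and lipid handling were lower in loaded DCs where called. Of 15 iron and heme genes 8 were called lower, and of 22 lipid genes 11 were lower, beside 5.18% of all genes. In a fit of the 6 arrays alone the counts were 5 and 7. Hmox1, which opens the heme ring, stood at -5.91, -4.67 and -5.37 in loaded DCs, against 0.89, 0.45 and 0.70 in loaded CD103 macrophages (63.8-fold lower, limma adjusted p = 7.44e-07). Blvrb, which encodes biliverdin reductase B, was lower (-3.02 ± 0.34) and the iron transporter Slc11a2 lower (-3.90 ± 0.51). Apoe, a carrier of cholesterol, was at -3.46, -6.04 and -5.01 in loaded DCs, against 0.21, 0.33 and 0.27 in loaded CD103 macrophages (34.5-fold lower). The Apoe values of the DC arrays were spread widely and all lay below the macrophage arrays.

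Several genes of the cytoskeleton were higher in loaded DCs. Of 25 genes 9 were called higher and 2 lower (median 0.382), with 4 higher in a fit of the 6 arrays alone. The median was -0.001 without loaded DC replicate 2 and 0.249 without replicate 1, with 7 and 9 called higher, so it rests on those arrays more than the calls do. Lsp1, an actin-binding protein of leukocytes, stood at 1.77, 1.85 and 2.04 in loaded DCs, against -2.50, -2.07 and -2.24 in loaded CD103 macrophages (17.8-fold higher, limma adjusted p = 1.64e-06). Gsn, which severs actin filaments, was 1.62 ± 0.24 higher and Arpc2, a subunit of the branching complex, 0.83 ± 0.13 higher. Actb itself was 0.63 ± 0.12 higher, a call that ended in a fit of the 6 arrays alone. Arpc2 was even, at 0.67, 0.70 and 0.69 in loaded DCs, against -0.23, -0.19 and -0.01 in loaded CD103 macrophages.

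Integrins, proteases and purinergic receptors were mostly lower where called. The shares over all genes were 5.18% lower and 1.73% higher. Of 19 integrins 6 were lower and 2 higher, and Itga9 was lower (-4.37 ± 0.35). Itgam, lower as given above, is a sort gene. Beside the sort gene Itgae the higher one was Itgb7, its partner chain (1.39 ± 0.34), whose call ended without loaded DC replicate 2 or 3 (1.23 and 1.27) or loaded CD103 macrophage replicate 1 or 2 (1.16 and 1.36). Of 22 extracellular proteases and matrix genes 11 were lower and 2 higher. Mmp9, a gelatinase, stood at -5.41, -5.52 and -5.09 in loaded DCs, against 0.38, 0.06 and 0.69 in loaded CD103 macrophages (52.7-fold lower), and Plau, the urokinase, was lower (-5.91 ± 0.34). The 2 higher were the metalloprotease Adam8 (4.59 ± 0.42) and the cathepsin inhibitor Cst3 (1.27 ± 0.15). Of 14 purinergic genes 4 were lower, including the nucleotide receptors P2ry13 (-4.47 ± 0.35) and P2rx7 (-4.23 ± 0.35), and 1 was higher. Of 16 genes of the Ms4a family 7 were lower.

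Oxidative phosphorylation and the cell cycle held no call, and glycolysis held several. Of 24 genes of oxidative phosphorylation 0 were called by limma, with a median of 0.317 (-0.029 without loaded CD103 macrophage replicate 1), and 3 had an unadjusted p under 0.05. After quantile normalization 2 of them were called higher and the median was 0.637. Of 25 cell cycle genes 0 were called by limma, with a median of -0.047, and 1 had an unadjusted p under 0.05. Over all 22180 genes, 4153 had an unadjusted limma p under 0.05 in the loaded contrast. Of 17 glycolysis genes 3 were lower and 2 higher, beside 5.18% and 1.73% of all genes, and 1 lower call was left in the fit of 6 arrays. The higher ones include Pgk1 (1.18 ± 0.26), whose call ended without loaded DC replicate 3 (1.05) or loaded CD103 macrophage replicate 2 (0.99). Hk2, the inducible hexokinase, was at -4.09, -2.38 and -3.17 in loaded DCs, against 0.48, 0.97 and 1.79 in loaded CD103 macrophages (19.6-fold lower), while Pfkp, a phosphofructokinase, was 3.51 ± 0.54 higher, a call that ended in a fit of the 6 arrays alone. The bars by list place glycolysis and the other lists with at least 2 calls beside the share over all genes.

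**Figure D4:**
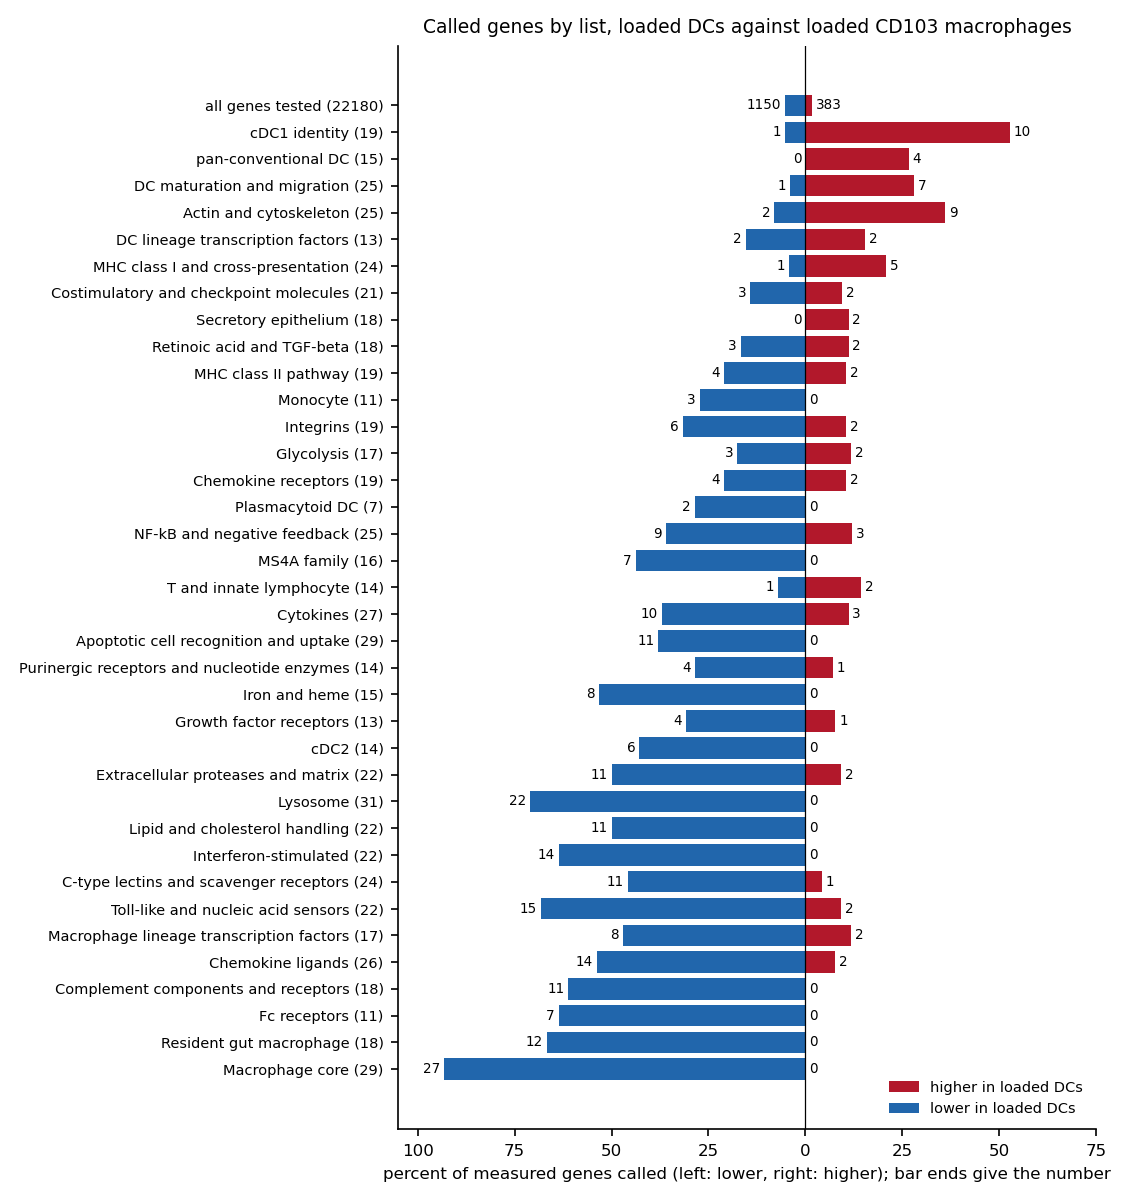
Bars give the percent of each list's measured genes called lower (blue, left) and higher (red, right) in loaded DCs, with the number of genes at the bar end and the number measured in brackets. The top bar is all 22180 genes, with 1150 lower and 383 higher. Lists with fewer than 2 calls are not drawn. Core macrophage genes reach 27 lower of 29, and cDC1 genes 10 higher of 19.

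Markers of other cell types were also compared. Mean values of the secretory epithelium list ran from 0.517 to 1.02 in the loaded DC arrays, against -0.003 to 0.071 in the loaded CD103 macrophage arrays, so the groups did not overlap. The median difference of its 18 genes was 0.091, and the Paneth cell defensins Defa21 and Defa24 alone stood at 9.62 and 4.39 in the first loaded DC array. After quantile normalization 0 of 18 measured secretory genes were called, and as deposited 2 were called higher. One was the granin Chgb (0.69 ± 0.17), whose call ended without any 1 of the loaded DC replicates 1 and 3 or the 3 loaded CD103 macrophage arrays (0.52 to 0.72). Defa24 stood at 4.39, 3.87 and 4.53 in loaded DCs, against -0.36, 2.23 and 0.58 in loaded CD103 macrophages (3.45 ± 0.54), and its call ended under quantile normalization or in a fit of the 6 arrays alone. Defa21 was at 9.62, 6.47 and -0.12 in loaded DCs, against -0.02, -0.48 and -0.12 in loaded CD103 macrophages, and did not pass (5.53 ± 1.85, limma adjusted p = 0.0993). Without loaded DC replicate 3, the array at -0.12, it passed (8.26, limma adjusted p = 0.00167). Defensin genes are near-identical copies, so probes may not separate them. Enterocyte means ran from 0.252 to 0.4 in loaded DCs, against -0.026 to 0.349 in loaded CD103 macrophages, and overlapped. Epcam differed by 0.02 ± 0.19 (limma adjusted p = 0.973). The part of epithelial RNA in the other differences was not tested.

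Means of 3 further lists were lower in every loaded DC array than in every loaded CD103 macrophage array. Monocyte means ran from -0.764 to -0.632 in loaded DCs, against -0.256 to 0.073 in loaded CD103 macrophages, with 3 of 11 genes called lower (Ms4a4c, F13a1 and S100a4). In the fit of 6 arrays 1 was called lower, and after quantile normalization 1 was called lower and 1 higher. The call of S100a4 (-2.48 ± 0.60) ended without loaded DC replicate 1 or 3 (-2.47 each) or loaded CD103 macrophage replicate 1 (-2.07). Plasmacytoid DC means ran from -0.803 to -0.442 in loaded DCs, against -0.014 to 0.229 in loaded CD103 macrophages, with 2 of 7 called lower, Bst2 and the transcription factor Tcf4 (-3.57 ± 0.52). Granulocyte and mast cell means ran from -0.215 to -0.098 in loaded DCs, against 0.03 to 0.101 in loaded CD103 macrophages, with 1 of 15 called, Csf3r. Their part in the other differences was not tested.

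Lymphocyte means overlapped between the loaded groups. T and innate lymphocyte means ran from -0.282 to -0.015 in loaded DCs, against -0.155 to 0.515 in loaded CD103 macrophages, and B cell means from -0.358 to -0.244 in loaded DCs, against -0.266 to 0.224 in loaded CD103 macrophages. Of 14 T and innate lymphocyte genes 3 were called. Cd8a, which cDC1 of lymphoid organs also carry, was 2.68 ± 0.38 higher. Gzma, a protease of cytotoxic lymphocytes, was at -1.65, -1.56 and -1.49 in loaded DCs, against 0.72, 2.59 and 1.35 in loaded CD103 macrophages (-3.12 ± 0.47). The third, Gata3 (0.39 ± 0.11), lost its call without any 1 of the 6 arrays (0.35 to 0.45). Stromal means overlapped (-0.027 to 0.154 in loaded DCs, against 0.046 to 0.135 in loaded CD103 macrophages). Of 15 stromal genes 0 were called by limma and 0 had an unadjusted p under 0.05, beside 4153 of all 22180 genes.

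The same populations were also sorted from the GFP-minus gate, so the same contrast could be made in cells gated as lacking GFP. Between unloaded DCs and unloaded CD103 macrophages 805 genes were called (3.63%), 334 (1.51%) higher and 471 (2.12%) lower. The higher calls were 183 without unloaded CD103 macrophage replicate 2, 214 and 216 without unloaded DC replicates 2 and 3, and 636 with array weights. Markers of other cells moved with the GFP gate. T and innate lymphocyte means were 0.163 to 0.887 in unloaded DCs, against 1.296 to 2.666 in unloaded CD103 macrophages, all of which lay above the loaded CD103 macrophages (-0.155 to 0.515). Monocyte means were -0.447 to 0.052 in unloaded DCs, against 0.567 to 0.959 in unloaded CD103 macrophages, again above the loaded ones. Of 14 T and innate lymphocyte genes 4 were called lower and 1 higher in the unloaded contrast. In the test of the loaded minus the unloaded difference limma called none of the 14. Of them 7 had an unadjusted p under 0.05 in that test, beside 2728 of all 22180 genes. The part of these other cells in either result was not tested. In both contrasts, which share no array, 483 genes were called in the same direction, which is 31.5% of the loaded calls and 60% of the unloaded ones, and 4 in opposite directions. Those 4, looked up after the count was known, were Trit1, Hmgn5, Acadsb and Fnta, all lower in loaded DCs and higher in unloaded DCs than in the macrophages (-1.29 and 0.86 for Acadsb, a dehydrogenase of branched acyl chains, -1.17 and 1.60 for Fnta, a farnesyltransferase subunit). The loaded call of Fnta ended without loaded DC replicate 1 (limma adjusted p = 0.0896) or 2 (-1.10) or loaded CD103 macrophage replicate 1 or 2 (-1.14 and -1.13). Under quantile normalization the loaded calls of Hmgn5 (-1.25, limma adjusted p = 0.112), Acadsb (-0.82, limma adjusted p = 0.0621) and Fnta (-0.72, limma adjusted p = 0.198) ended. The loaded call of Trit1 stayed (-1.29). Core macrophage genes were lower in 25 of 29 cases in the unloaded contrast (median -3.332), against 2.12% of all genes, and cDC1 genes higher in 13 of 19 (median 2.577), against 1.51% of all genes. Of the 1046 genes called in the loaded contrast alone, 40 also differed between the contrasts by the test of that difference.

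That test, the loaded difference minus the unloaded difference, called 77 genes (0.347%), 15 (0.0676%) with a higher and 62 (0.28%) with a lower value in the loaded contrast. Ccl17 differed by 4.55 ± 0.67 (limma adjusted p = 0.00826). It stood at 0.22, 1.51 and 1.92 in unloaded DCs, against -0.22, -1.71 and -1.39 in unloaded CD103 macrophages, so that the loaded DCs were above every unloaded DC array and the loaded macrophages below every unloaded macrophage array. Fscn1 was 2.72 ± 0.45 further apart in loaded cells, with 3.15, 1.99 and 1.97 in unloaded DCs, against -0.91, -0.72 and -0.67 in unloaded CD103 macrophages. The call of Fscn1 in this test ended without unloaded DC replicate 2 (2.53, limma adjusted p = 0.0507) or replicate 3 (2.52, limma adjusted p = 0.0517) and without unloaded CD103 macrophage replicate 2 (2.69, limma adjusted p = 0.053). Ly75 was 1.48 ± 0.18 further apart in loaded cells. The calls of Ccl17 and Ly75 ended under quantile normalization (limma adjusted p = 0.0848 and 0.0559). Ccr7 differed by 4.38 in the loaded contrast and by -0.14 in the unloaded one, but the difference between them did not pass (4.52, limma adjusted p = 0.13). Of 25 maturation genes 2 were called higher in this test, Ccl17 and Fscn1, and the median was 1.116, beside -0.036 over all genes.

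Nudt17, a hydrolase of the Nudix family, was called in the loaded contrast and not in the unloaded one, at 3.11, 3.55 and 4.09 in loaded DCs, against -0.31, -0.04 and -0.10 in loaded CD103 macrophages, and 0.02, 1.09 and -0.13 in unloaded DCs, against 0.10, 0.26 and -0.41 in unloaded CD103 macrophages (3.39 ± 0.42, limma adjusted p = 0.0025). In the other direction the loaded difference was lower than the unloaded one for Ms4a7 (-2.65 ± 0.23) and for Cybb (-3.05 ± 0.42). Ms4a7 was at -4.04, -4.03 and -3.41 in unloaded DCs, against -0.03, 0.03 and 0.22 in unloaded CD103 macrophages, so every loaded DC array lay below every unloaded one. Cybb was at -3.48, -2.34 and -3.10 in unloaded DCs, against -0.05, -0.56 and 0.46 in unloaded CD103 macrophages, and its call ended under quantile normalization (limma adjusted p = 0.136). Cd63, a tetraspanin of late endosomes, was less low in loaded DCs than in unloaded DCs: -0.67, -0.78 and -0.59 in loaded DCs, against 0.24, 0.37 and 0.34 in loaded CD103 macrophages, and -3.52, -2.67 and -3.40 in unloaded DCs, against -0.05, 0.05 and -0.19 in unloaded CD103 macrophages (2.14 ± 0.26, limma adjusted p = 0.00236).

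Dapk2, a calmodulin-regulated kinase, overlapped with the macrophages in loaded DCs (-0.13, 0.16 and 0.02, against -0.41, 0.12 and -0.02 in loaded CD103 macrophages) and far above it in unloaded DCs (4.20, 3.39 and 5.42, against -0.03, -0.17 and -0.02 in unloaded CD103 macrophages). The difference between the contrasts was -4.30 ± 0.50 (limma adjusted p = 0.00236). Gcsam, a gene of the cDC1 list, was also called lower in this test (-2.88 ± 0.43), at 0.02, -0.25 and 0.54 in loaded DCs, against -0.17, -0.08 and -0.06 in loaded CD103 macrophages, and at 2.06, 3.62 and 3.32 in unloaded DCs, against 0.03, -0.17 and -0.11 in unloaded CD103 macrophages. The call of Gcsam ended without the arrays of weight under 0.5 (limma adjusted p = 0.0643) and in a fit of the 12 arrays of these groups. Cell cycle genes had a median of 1.038 in the unloaded contrast with 5 of 25 called higher, among them Mki67 (2.97) and Kif11 (2.12). None differed between the contrasts by limma: Mki67 had an adjusted p of 0.18 and Kif11 of 0.083. In that test 9 of 25 had an unadjusted p under 0.05, beside 2728 of all 22180 genes.

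**Figure D5:**
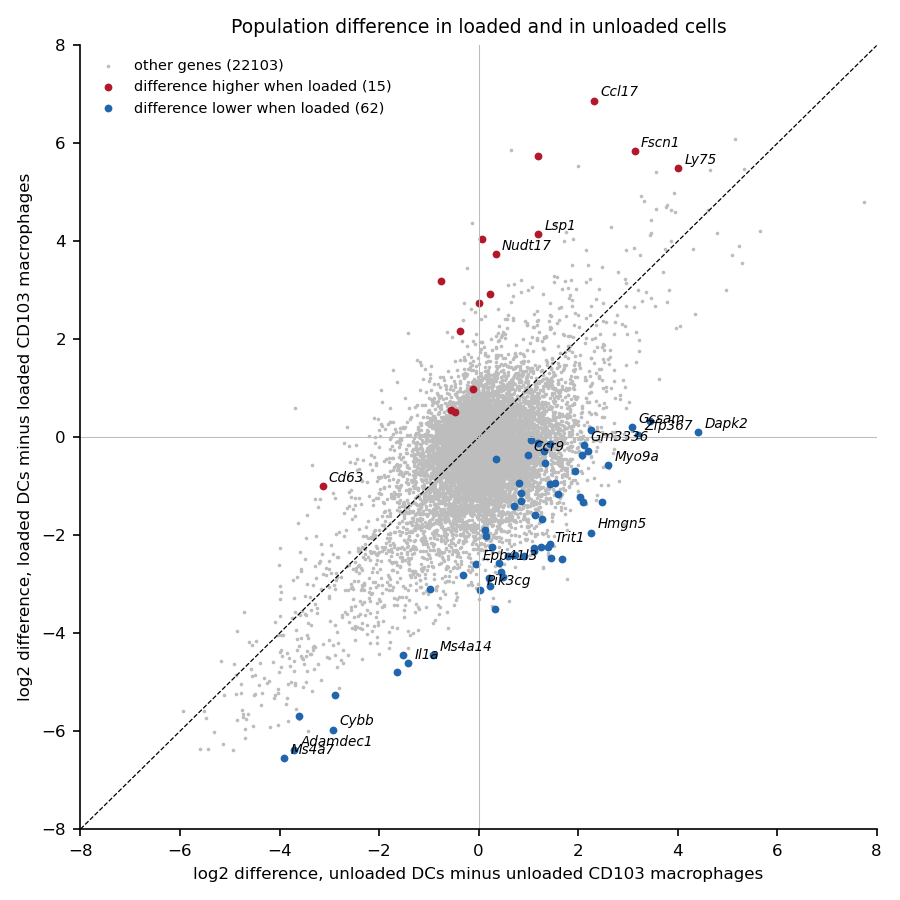
Each point is 1 gene, with the log2 difference of unloaded DCs minus unloaded CD103 macrophages on the x axis and of loaded DCs minus loaded CD103 macrophages on the y axis; the dashed line marks equal differences. Red and blue mark the 15 and 62 genes whose loaded difference was higher or lower than the unloaded one by limma. Ccl17 lies at 2.33 on x and 6.87 on y, and Dapk2 at 4.41 on x and 0.11 on y.

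Set against loaded CD11b macrophages, the loaded DCs differed in 2096 genes (9.45%), 435 (1.96%) higher and 1661 (7.49%) lower. This contrast uses the same 3 loaded DC arrays, so its values stand beside those above without a test between them. Csf1r was at -6.37 against CD103 macrophages and -6.76 against CD11b macrophages, and Ccl17 at 6.87 and 5.40. Cd163 was lower (-4.69) than in CD103 macrophages and differed by -0.32 ± 0.55 from CD11b macrophages (limma adjusted p = 0.81). It stood at -0.09, -0.15 and 0.09 in loaded DCs, against 5.34, 4.30 and 4.27 in loaded CD103 macrophages, and the macrophage arrays are the high ones. C4b, complement component C4, was lower (-3.27) than in CD103 macrophages and differed by -0.31 from CD11b macrophages (limma adjusted p = 0.62). Ccl7 (-6.37 and -3.89), Spic (-4.34 and -2.28), Tlr2 (-4.51 and -2.41), Ms4a14 (-4.44 and -2.09) and Gzma (-3.12 and -0.68, the second not called) also had the larger difference against CD103 macrophages. Ccr7 was 2.76 higher than in CD11b macrophages and did not pass there (limma adjusted p = 0.06).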

How the data were processed

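RNA was hybridised to Affymetrix mouse gene arrays after amplification of 1 ng with the NuGEN WT Ovation Pico system, per the labels' protocols. The authors deposited log2 values that are centred, as the values show, on each probe's median over the 18 arrays. The labels name neither software nor a normalization method. The log base was inferred, since 1 probe spans 10.15 units. Centring removed absolute signal, so levels of different genes cannot be compared, and no filter on signal was possible. Precision rests on 3 arrays per group.

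Of 33793 probes, 23521 carry 1 gene symbol, 1814 several and 8458 none; probes of 1 symbol were averaged to 22180 genes. limma 3.58.1 (R 4.3.3) fitted 1 mean per group to all 18 arrays, with empirical Bayes, 12 residual degrees of freedom, two-sided tests and Benjamini-Hochberg adjustment at 0.05. The same fit gave the unloaded contrast, the contrast with CD11b macrophages and the loaded minus unloaded difference. Named genes of the main contrast are the 15 largest called differences without overlap in each direction and the sort markers. From 42 lists they include the members with the smallest p-values and other members whose role is described. For the loaded minus unloaded test they are the 10 smallest p-values and called list members. The groups and lists were chosen with earlier results of these data known. Of 770 list entries 708 were measured. Motifs were matched with Python 3.11.15 in RefSeq promoters (GRCm38.p6). The fits were tested on simulated data. Alternatives were quantile normalization, a fit of the compared arrays alone, array weights, a replicate block, robust empirical Bayes, another probe choice, every probe alone, a fold minimum, and leaving out arrays.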

Additional observations from a re-analysis of the deposited data

Results flagged for a closer look

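For 21 genes named by the rule given above the difference between DCs and CD103 macrophages was not the same in loaded and in unloaded cells, by the limma test of the loaded minus the unloaded difference (Benjamini-Hochberg adjusted p under 0.05 over all genes, 3 arrays per group). For 6 of them the loaded difference was the higher one: Ccl17 (4.55), Nudt17 (3.39), Lsp1 (2.95), Fscn1 (2.72), Cd63 (2.14) and Ly75 (1.48). The loaded difference was the lower one for Ms4a7 (-2.65), Gm3336 (-2.28), Trit1 (-3.63), Zfp367 (-3.14), Dapk2 (-4.3), Hmgn5 (-4.21), Pik3cg (-3.15), Adamdec1 (-2.67), Cybb (-3.05), Gcsam (-2.88), Myo9a (-3.17), Il1a (-3.2), Epb41l3 (-2.54), Ccr9 (-1.34) and Ms4a14 (-3.53). Each value is a net one, to which either population can contribute. Lsp1 means were 1.88 and 1.74 in loaded and unloaded DCs, against -2.27 and 0.53 in loaded and unloaded CD103 macrophages. In the same order Epb41l3 means were -0.46 and -0.33, against 2.12 and -0.28. Those of Ms4a14 were -0.91 and -0.78, against 3.53 and 0.13. Hmgn5, which encodes a nucleosome-binding protein, and Trit1, a tRNA-modifying enzyme, changed direction: Hmgn5 was at -1.94 in the loaded and 2.27 in the unloaded contrast, and Trit1 at -2.23 and 1.40. In the loaded contrast the call of Hmgn5 ended under quantile normalization (-1.25, limma adjusted p = 0.112). Hmgn5 stood at -1.71, -1.42 and -1.35 in loaded DCs, against 0.82, 0.23 and 0.31 in loaded CD103 macrophages, and at 1.34, 1.46 and 1.40 in unloaded DCs, against -0.35, -1.49 and -0.75 in unloaded CD103 macrophages. In Zfp367, Dapk2, Gm3336 and Gcsam the unloaded DCs were high (differences of 3.20, 4.41, 2.12 and 3.09) and the loaded contrast was not called.

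In the loaded minus unloaded test, the calls of 9 of the 21 genes (Adamdec1, Cd63, Dapk2, Gm3336, Hmgn5, Ms4a7, Nudt17, Trit1 and Zfp367) were kept in all 19 alternatives. Those of Ccl17, Cybb, Ly75 and Pik3cg ended under quantile normalization only, that of Myo9a only without the arrays of weight under 0.5, and that of Gcsam there and in a fit of the 12 arrays of these groups. Leaving out 1 array ended the call of Lsp1 (2.97 without loaded CD103 macrophage replicate 3, limma adjusted p = 0.0503; 2.87 without unloaded DC replicate 2, limma adjusted p = 0.0507), Il1a (-3.08 without loaded CD103 macrophage replicate 3, limma adjusted p = 0.0503) and Fscn1 (2.53 and 2.52 without unloaded DC replicates 2 and 3, and 2.69 without unloaded CD103 macrophage replicate 2). Epb41l3 lost its call without loaded DC replicate 3, loaded CD103 macrophage replicate 3, unloaded DC replicate 2 or 3, or unloaded CD103 macrophage replicate 2 (-2.52, -2.47, -2.53, -2.50 and -2.48). Ccr9 lost it without loaded CD103 macrophage replicate 2 or 3 (-1.38 and -1.22), unloaded DC replicate 2 or 3 (-1.39 and -1.24), or unloaded CD103 macrophage replicate 1, 2 or 3 (-1.31, -1.38 and -1.34). Ms4a14 kept its call only without loaded DC replicate 2 or unloaded CD103 macrophage replicate 3 among the 12 arrays left out in turn, and its values without the others lay between -3.04 (unloaded CD103 macrophage replicate 1) and -3.73 (loaded CD103 macrophage replicate 2). What lies behind these differences was not tested.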

How the results depend on the processing

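The count of 1533 genes called between loaded DCs and loaded CD103 macrophages was 878 after quantile normalization, 752 with only the 6 arrays compared, and 1139 to 1703 when 1 array was left out. The 77 genes of the loaded minus unloaded test were 21 after quantile normalization, 186 with array weights and 36 to 239 with 1 array left out. They fell to 36 without loaded CD103 macrophage replicate 3, to 47 without its replicate 2, to 47 and 46 without unloaded DC replicates 2 and 3, and to 42 without unloaded CD103 macrophage replicate 2. They were 239 without loaded DC replicate 2, 179 without loaded CD103 macrophage replicate 1, 151 without unloaded DC replicate 1 and 144 without unloaded CD103 macrophage replicate 3. The 805 unloaded calls were 1292 with array weights and 593 to 904 with 1 array left out. The 2096 calls against CD11b macrophages were 1229 without loaded CD11b macrophage replicate 1, 1284 without its replicate 3, and at most 2445, and 43.7% instead of 20.8% of them were higher after quantile normalization. The cause was not tested; a fit of fewer arrays has fewer degrees of freedom. Other settings kept each total within 1.5 times, but not each direction: the 435 higher calls against CD11b macrophages were 676 after quantile normalization and 221, 227 and 231 without loaded CD11b macrophage replicates 1, 2 and 3. Quantile normalization also shrank named differences, by a median factor of 0.635 (log2 scale) for 101 genes called lower and 0.944 for 55 called higher. Of 185 genes named for the main contrast 148 kept their side of the threshold in all 13 alternatives, 33 lost a call somewhere, 4 gained one, and none of these reversed. Many of the 185 were named for a large difference or a small p-value, so their share does not stand for all calls. Of the 1533 calls, 823 were also called after quantile normalization and 689 with only the 6 arrays compared.

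Deviations of same-numbered arrays from their group means correlated at 0.136, 0.0743 and -0.0413 in the loaded groups. Loaded DC replicate 2 correlated best with macrophage replicate 3 (0.221). With 3 arrays per group, whose deviations depend on each other, these values cannot decide whether replicate numbers pair the arrays. With the replicate block 1593 genes were called in the main contrast and 114, 910 and 2216 in the loaded minus unloaded, unloaded and CD11b contrasts. A filter on absolute signal could not be run. Groups of 3 arrays, an input of 1 ng and centred values limit what can be said of low genes.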
